A study of Canis lupus familiaris with 10 samples.

Results

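Ribosome biogenesis factors are the proteins that build ribosomes in the nucleolus, and their transcripts were followed here through a calcium switch in MDCK, a line of epithelial cells of dog kidney origin. The members were 40 genes listed by name: RNA polymerase I and its initiation factor, proteins of the small nucleolar RNA particles, processing factors of the small and large ribosomal subunits, and nucleolar regulators. Of these 40, 38 had a probe set annotated to that gene alone, and all 38 passed the signal filter, out of 10498 genes that passed it in all. NIP7 was not listed in the annotation, and TSR1 shared its probe set with another gene, so neither was analysed here. Where a gene had several probe sets, the one with the highest mean signal was used.

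The series asked how 12-HHT and its receptor BLT2 act on expression after a calcium switch. MDCK cells overexpressing human BLT2 were set against Mock MDCK cells, and are called BLT2 and Mock here. BLT2 is the receptor on the cell membrane that 12-hydroxyheptadecatrienoic acid (12-HHT), a fatty acid product, binds. Each line was sampled as a confluent culture in DMEM with 10% fetal calf serum (0 h), after 2 h and 18 h in the calcium-free medium SMEM, and after 18 h in SMEM followed by 2 h in the high-calcium medium DMEM, without and with 200 nM 12-HHT. Each of the 10 combinations of line and step had 1 GeneChip Canine Gene 1.0 ST array, hybridised with RNA mixed from 3 preparations, so there was no replicate array. Whether a line was a single clone is not given in the sources used here, and no probe set was named for the BLT2 gene itself. Between 0 h and the SMEM steps the medium and its calcium both differed. The labels state serum for 0 h only, so whether it also differed in SMEM or in the DMEM of the return is not given. No array came from cells kept in DMEM for the same hours, so time in culture and the change of medium differed from 0 h as well. Effects of medium, calcium, serum, time and medium change therefore cannot be told apart. In RNA from whole cultures, fewer cells expressing a gene and less RNA per cell cannot be told apart either.

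RNA polymerase I copies the ribosomal DNA into a long precursor RNA, with RRN3 bringing the enzyme to the promoter. Particles of the box C/D class then guide methylation of that RNA and particles of the box H/ACA class guide its pseudouridylation, while processing factors cut and fold it around ribosomal proteins into the small and large subunits. Ribosome production consumes much of a growing cell's resources, and its genes are known to respond to serum, nutrients, stress and the transcription factor MYC.

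Signals are given on the log2 scale, where a difference of 1 is a 2-fold difference, and levels are compared only within a gene. Array medians lay between 7.16 and 7.27. Mean correlations with the remaining arrays were between 0.982 and 0.987, except that BLT2 at 2 h had 0.975. Fitted comparisons that use the 2 h step are therefore also given without that array. Values within BLT2 at 2 h, and the term for the lines at 2 h given below, cannot be had without it. The epithelial markers CDH1, KRT18, EPCAM and CLDN7 reached at least 11.04 on every array, while KRT8 had 7.21 to 7.79 and the kidney transcription factor PAX8 had 9.33 to 10.48. CDH16, a cadherin of kidney tubules, had 6.73 to 7.28 and did not pass the filter, which asked for 2 arrays above 7.21. PAX8 was lower at 18 h than at 0 h (-0.57 ± 0.12, limma adjusted p 0.0144) and higher on calcium return than at 18 h (0.93 ± 0.12, adjusted p 0.0143). CDH1 was higher at 18 h (0.53 ± 0.10, adjusted p 0.00800) and on return (0.60 ± 0.10, adjusted p 0.0102) than at 0 h, and KRT18 was higher in BLT2 than in Mock (0.50 ± 0.09, adjusted p 0.0147). The part of these markers in the results below was not tested. Of the markers fixed for other cell types, 1 of 6 for fibroblasts, 1 of 6 for endothelium and 2 of 6 for leukocytes passed the filter. They were COL1A1 (7.28 to 8.01), VWF (6.66 to 7.45), CD68 (7.11 to 7.43) and CD14 (7.16 to 7.90), near the range of KRT8. VWF was lower in BLT2 than in Mock (-0.56 ± 0.09, limma adjusted p 0.0101). CD14 was lower at 18 h than at 2 h (-0.55 ± 0.14, limma adjusted p 0.0338). Their part in the results was not tested either. Fibroblast marker means lay between 6.32 and 6.66 in BLT2 and 6.29 and 6.59 in Mock. Endothelial marker means were 5.49 to 5.77 in BLT2 and 5.55 to 5.80 in Mock, and leukocyte marker means were 6.0 to 6.37 in BLT2 and 5.99 to 6.17 in Mock.

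Most of the 38 factors had their highest signal before calcium was removed. In BLT2, 27 of the 38 members were highest at 0 h, which 24% of all genes tested were, and 30 were lowest at 2 h, which 32.4% of all genes were. In Mock, 24 members were highest at 0 h, against 25% of all genes, and the lowest value was at 2 h for 11 members, at 18 h for 11 and on the return without 12-HHT for 9. Of all genes in Mock, 25%, 20.7% and 21.1% were lowest at those steps, near the members' 28.9%, 28.9% and 23.7%. No member was lowest at 0 h in BLT2, and 3 were in Mock.

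**Figure D1:**
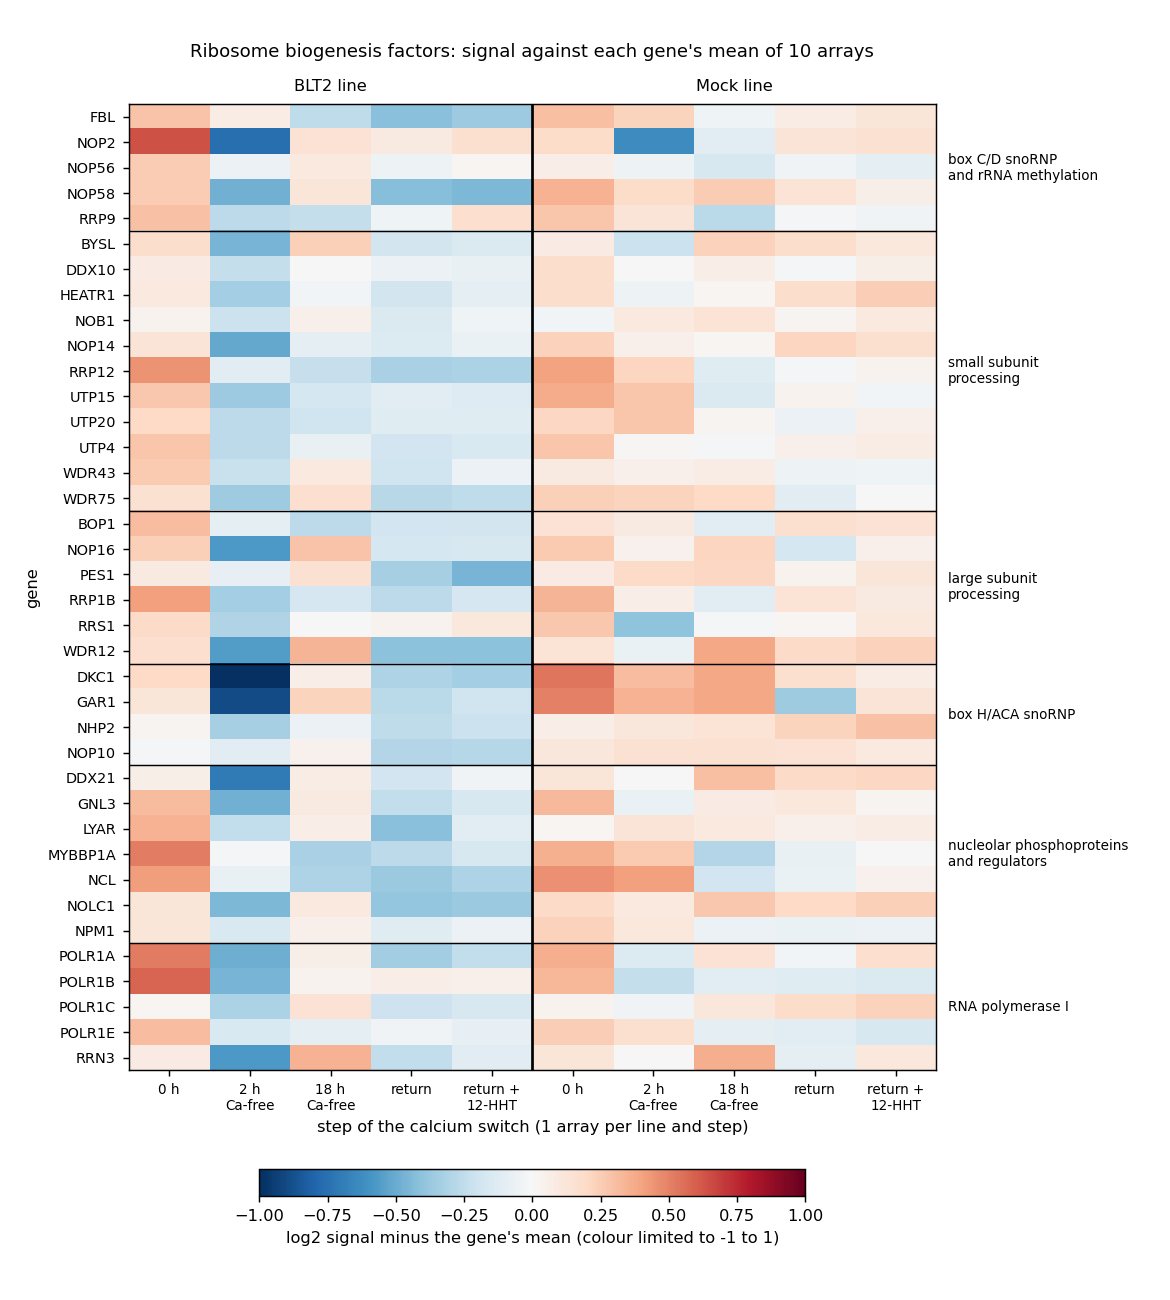
Log2 signal of the 38 ribosome biogenesis factors (rows, grouped by role) on the 10 arrays (columns, BLT2 left, Mock right), each value minus the gene's mean of the 10 arrays, with colours limited to -1 and 1. The 0 h columns are mostly red in both lines, and the BLT2 column at 2 h is the bluest, with DKC1, GAR1 and NOP2 the darkest rows.

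The members differed in how far they moved. The SD over the 10 arrays was largest for DKC1 (0.47), GAR1 (0.43) and NOP2 (0.41) and was 0.11 for DDX10 and NOB1. DKC1, the pseudouridine synthase of the box H/ACA particle, ranged between 7.43 and 9.06, while NOB1, the nuclease that makes the last cut of the small subunit RNA, ranged between 9.88 and 10.24. In the dog gene table NOP58 and WDR12 lay close together with 3 genes between them, and NOB1 and UTP4 with 10 genes between them. No other pair of members lay within 20 genes of each other.

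After 2 h without calcium, 4 of the 38 factors fell and none rose at an adjusted p under 0.05 in limma, fitted to the 10 arrays with additive terms for line and for step. They were NOP2, POLR1B, POLR1A and RRS1. Among all genes tested, 1.98% fell and 2.64% rose in this comparison. The fitted change lay below 0 for all 38 members, with a median of -0.34, whereas 53.6% of all genes lay below 0 with a median of -0.02. At an unadjusted p under 0.05 there were 21 members, or 55.3%, and 23.5% of all genes. The 2 h comparison and the 18 h and return comparisons with 0 h below share the 0 h arrays, so their values are not independent.

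NOP2, a methyltransferase that modifies the large subunit RNA, had signals in BLT2 of 10.28 at 0 h, 8.89 at 2 h, 9.79 at 18 h, 9.73 on return and 9.80 on return with 12-HHT. In Mock they were 9.83, 9.02, 9.54, 9.77 and 9.80 in the same order of steps. The 2 arrays at 2 h were the lowest of the 10 in NOP2 and did not overlap the others. NOP2 fell by 1.10 ± 0.15 (SE) at 2 h with a limma adjusted p of 0.0125. The change was -1.38 in BLT2 and -0.82 in Mock.

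POLR1A and POLR1B encode the 2 largest subunits of RNA polymerase I, which form its catalytic centre. POLR1B had signals of 11.32, 10.28, 10.78, 10.81 and 10.80 in BLT2 and 11.08, 10.51, 10.64, 10.62 and 10.60 in Mock. Both 0 h arrays were above the other 8, and the BLT2 array at 2 h was the lowest of all. POLR1B fell by 0.81 ± 0.13 at 2 h (limma adjusted p 0.0199). POLR1A had signals of 10.06, 9.05, 9.60, 9.19 and 9.29 in BLT2 and 9.90, 9.40, 9.68, 9.52 and 9.71 in Mock. Its 0 h arrays were again the highest of each line and its 2 h arrays the lowest of each line, and it fell by 0.76 ± 0.15 (limma adjusted p 0.0375).

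RRS1, which helps bring the 5S RNA particle into the large subunit, had signals of 8.02, 7.52, 7.82, 7.85 and 7.93 in BLT2 and 8.09, 7.42, 7.80, 7.85 and 7.93 in Mock. The lines ran nearly on top of each other at every step, with both 2 h arrays below all others. RRS1 fell by 0.58 ± 0.09 at 2 h (limma adjusted p 0.0178), by 0.49 in BLT2 and by 0.67 in Mock. The smallest fitted changes at 2 h were those of NOP10, a small box H/ACA protein, with -0.02 ± 0.11, and of PES1, a large subunit factor, with -0.03 ± 0.15.

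By role, the median fitted change at 2 h was -0.49 over 6 large subunit factors, -0.39 over 5 proteins of RNA polymerase I, -0.37 over 4 box H/ACA proteins, -0.35 over 5 proteins of the box C/D and methylation group, -0.33 over 11 small subunit factors and -0.31 over 7 nucleolar regulators. The 4 that fell came from polymerase I (2), the methylation group (1) and the large subunit factors (1). No small subunit factor, box H/ACA protein or nucleolar regulator passed the test. GNL3, or nucleostemin, a nucleolar GTPase, came nearest with -0.59 ± 0.13 and a limma adjusted p of 0.0501.

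**Figure D2:**
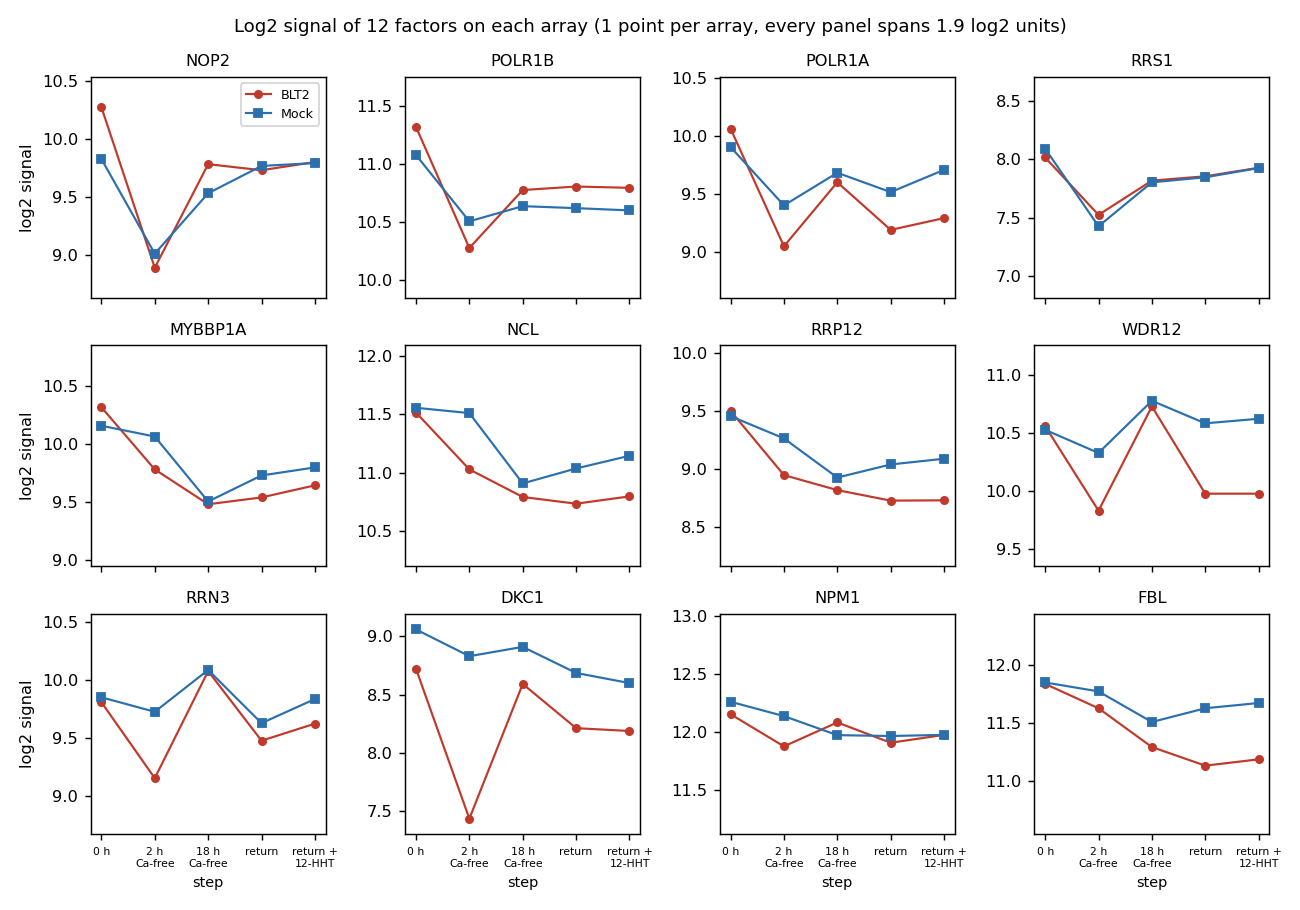
Log2 signal of 12 factors at the 5 steps (BLT2 circles, Mock squares, 1 array per point, each panel spanning the same range). NOP2, POLR1B, POLR1A and RRS1 are lowest in both lines at 2 h, MYBBP1A, NCL and RRP12 are lower at 18 h than at 0 h in both lines, and DKC1 in BLT2 at 2 h lies at 7.43.

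The size of the 2 h change differed between the arrays of the lines. In BLT2 all 38 members were lower at 2 h than at 0 h, with a median change of -0.55 and 16 of them past 1.5-fold, a size that 7.78% of all genes reached downward on these arrays. In Mock 32 were lower, with a median of -0.12 and 2 past 1.5-fold, NOP2 and RRS1, against 1.17% of all genes. The all-gene medians were -0.06 in BLT2 and -0.01 in Mock. The BLT2 array at 2 h is the array with the lowest correlation to the others, and its part in this difference was not tested.

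DKC1 and GAR1, both of the box H/ACA particle, differed most between the lines at 2 h. DKC1 had signals of 8.72, 7.43, 8.59, 8.21 and 8.19 in BLT2 and 9.06, 8.83, 8.91, 8.69 and 8.60 in Mock. GAR1 had 8.29, 7.27, 8.38, 7.89 and 7.97 in BLT2 and 8.66, 8.51, 8.55, 7.80 and 8.29 in Mock. In both genes the BLT2 array at 2 h was below all other 9, while in Mock the change between 0 h and 2 h was -0.23 in DKC1 and -0.15 in GAR1. A term for BLT2 minus Mock at 2 h against the other 4 steps, added after seeing the data, called 0% of all genes and 0 of the 38 members in limma. At an unadjusted p under 0.05 it had 11 members, or 28.9%, and 14.6% of all genes. Its values were -1.01 for DKC1 and -1.05 for GAR1, each with an adjusted p of 0.287, and its median over the members was -0.24, against -0.10 over all genes.

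**Figure D3:**
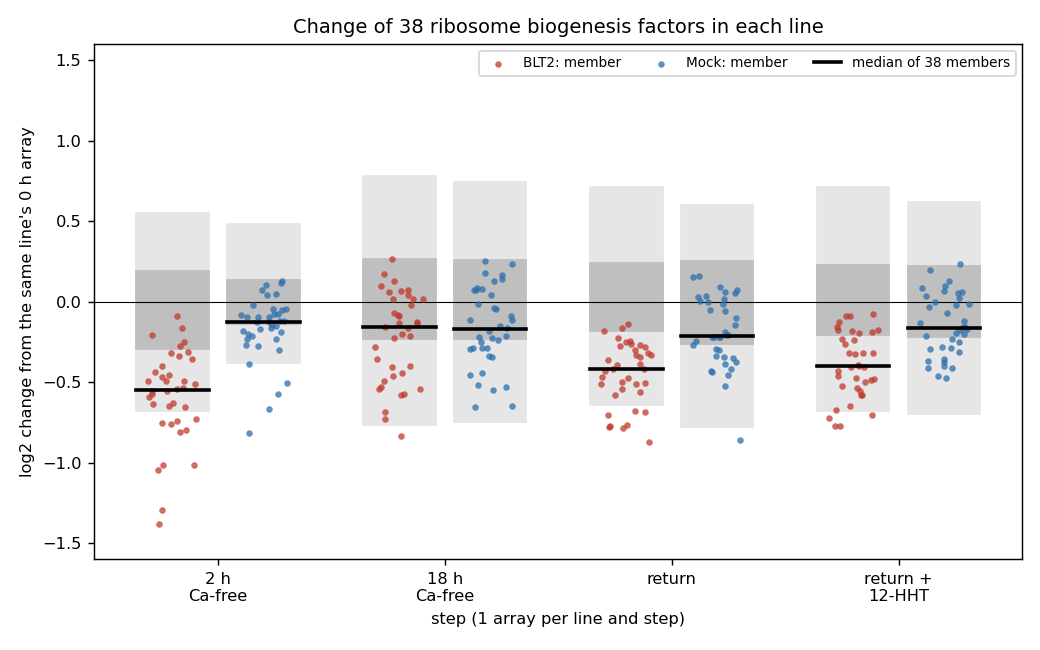
Log2 change of each of the 38 members from the same line's 0 h array (points, BLT2 left and Mock right at each step, black line the median), over boxes that hold the 25th to 75th (dark grey) and 5th to 95th (light grey) percentiles of all 10498 genes. The BLT2 points at 2 h have a median of -0.55 and the Mock points -0.12, while at 18 h the medians are -0.16 and -0.17.

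Leaving out the BLT2 array at 2 h gave a median member change of -0.20 at 2 h, with 36 of 38 below 0 and 0 members called, and leaving out the BLT2 array at 0 h gave 0 called with 32 below 0. The count was 14 without the Mock array at 2 h and 1 without the BLT2 array at 18 h or the Mock array at 0 h or 18 h.

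After 18 h without calcium, 6 members were lower than at 0 h and 0 were higher in limma, while 12.2% of all genes were lower and 15% higher. They were MYBBP1A, NCL, RRP12, RRP9, RRP1B and POLR1B. The fitted change was below 0 for 29 of 38 members with a median of -0.16, against 0.02 over all genes. The medians within the lines were close, with -0.16 in BLT2 and -0.17 in Mock. The share of members called lower, 6 of 38, was near that of all genes.

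MYBBP1A, a nucleolar protein that regulates transcription and processing of ribosomal RNA, had signals of 10.32, 9.78, 9.48, 9.54 and 9.65 in BLT2 and 10.16, 10.07, 9.51, 9.73 and 9.80 in Mock. The 18 h array was the lowest of each line and the 0 h array the highest. MYBBP1A fell by 0.74 ± 0.12 at 18 h (limma adjusted p 0.00623). NCL, or nucleolin, an abundant RNA-binding protein of the nucleolus, had 11.52, 11.03, 10.79, 10.73 and 10.79 in BLT2 and 11.56, 11.51, 10.91, 11.04 and 11.14 in Mock. In Mock NCL at 2 h was close to its 0 h signal, with a change of -0.05, and was lower on all later arrays. NCL fell by 0.69 ± 0.13 at 18 h (limma adjusted p 0.00847).

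RRP12, a factor for maturation and export of the small subunit, had signals of 9.50, 8.94, 8.82, 8.72 and 8.73 in BLT2 and 9.45, 9.26, 8.92, 9.04 and 9.09 in Mock. Both 0 h arrays were above the other 8, and RRP12 fell by 0.61 ± 0.12 at 18 h (limma adjusted p 0.0125). RRP9, a protein of the U3 particle that starts small subunit processing, fell by 0.54 ± 0.14 (adjusted p 0.0299), by 0.53 in BLT2 and by 0.55 in Mock. Its signals were 9.17, 8.61, 8.63, 8.83 and 9.04 in BLT2 and 9.15, 9.01, 8.60, 8.85 and 8.84 in Mock, with the 0 h array the highest of each line. RRP1B, a large subunit factor, had 9.64, 8.89, 9.06, 8.96 and 9.06 in BLT2 and 9.57, 9.29, 9.12, 9.36 and 9.32 in Mock, again highest at 0 h in both lines. RRP1B fell by 0.52 ± 0.14 (adjusted p 0.0317), by 0.58 in BLT2 and by 0.45 in Mock. POLR1B fell by 0.49 ± 0.13 (adjusted p 0.0307). NOP16 and NHP2 had the smallest fitted changes, both written as 0.00 at 2 decimals, with SEs of 0.17 and 0.14.

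FBL, or fibrillarin, the methyltransferase of the box C/D particle, had signals of 11.83, 11.62, 11.29, 11.13 and 11.18 in BLT2 and 11.85, 11.77, 11.50, 11.62 and 11.67 in Mock. Its 18 h arrays lay below its 0 h arrays in both lines, with a fitted change of -0.44 ± 0.14 that did not pass the test (limma adjusted p 0.0521). NPM1, or nucleophosmin, a nucleolar chaperone, had 12.15, 11.87, 12.08, 11.91 and 11.97 in BLT2 and 12.26, 12.14, 11.97, 11.96 and 11.97 in Mock. Its change was -0.18 ± 0.11 at 18 h (adjusted p 0.276), and the probe set used here for NPM1 passed the test in no comparison. A second NPM1 probe set, given below, fell further in both lines.

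HEATR1, UTP4, UTP15, WDR43 and WDR75 belong to the subcomplex of the small subunit processome that binds the precursor RNA first and is linked to its transcription. None of them passed the test in any comparison of steps or lines. UTP15 had signals of 10.33, 9.70, 9.88, 9.94 and 9.93 in BLT2 and 10.44, 10.34, 9.92, 10.10 and 10.04 in Mock, and UTP4 had 12.03, 11.49, 11.67, 11.56 and 11.60 in BLT2 and 12.02, 11.76, 11.74, 11.80 and 11.82 in Mock. Both were highest at 0 h in each line, and their lowest array was that of 2 h in BLT2 and 18 h in Mock. At 18 h UTP15 had a fitted change of -0.48 ± 0.15 (limma adjusted p 0.0537) and UTP4 one of -0.32 ± 0.11 (adjusted p 0.0610), while WDR75 had -0.01 ± 0.14 and WDR43 -0.09 ± 0.12.

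Probe sets of NPM1 disagreed in size. Between 0 h and 2 h the one used here, with a mean of 12.03, changed by -0.28 in BLT2 and -0.12 in Mock. Another, with a mean of 10.77, changed by -0.85 in BLT2 and -0.98 in Mock. Its signals were 11.27, 10.41, 10.38, 10.68 and 10.86 in BLT2 and 11.47, 10.50, 10.62, 10.86 and 10.69 in Mock. The 0 h array of this probe set was the highest of each line, and it was not tested. The dimmest, with a mean of 5.0 and so below the filter level of 7.21, changed by 0.49 in BLT2 and -0.18 in Mock. LYAR, a nucleolar zinc finger protein, had a probe set with changes of -0.59 in BLT2 and 0.11 in Mock, and a dimmer probe set with -0.19 in BLT2 and -0.30 in Mock.

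None of the 6 members passed the test at 18 h without the BLT2 array at 0 h, the BLT2 array at 18 h or the Mock array at 18 h. Their fitted changes stayed below 0 in each of the 10 fits that left out an array. The median over the 38 was -0.07 with 23 below 0 without the Mock array at 18 h and -0.10 with 21 below 0 without the BLT2 array at 0 h. It was -0.27 with 34 below 0 without the BLT2 array at 18 h and -0.27 with 37 below 0 without the Mock array at 0 h.

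Set against 2 h, 6 members were higher at 18 h and 2 were lower in limma, while 14.3% of all genes were higher and 8.33% lower. The share of members called higher, 6 of 38, was near that of all genes. At an unadjusted p under 0.05 there were 13 members, or 34.2%, and 37.4% of all genes. The higher ones were NOP2 (0.71 ± 0.15), WDR12 (0.67 ± 0.19), RRN3 (0.64 ± 0.14), BYSL (0.57 ± 0.13), DDX21 (0.54 ± 0.15) and RRS1 (0.34 ± 0.09), with limma adjusted p between 0.0178 and 0.0424. The lower ones were MYBBP1A (-0.43 ± 0.12, adjusted p 0.0440) and NCL (-0.42 ± 0.13, adjusted p 0.0499). The fitted change was above 0 for 28 of 38 members, with a median of 0.17 against 0.03 over all genes. In BLT2 33 members were above 0 with a median of 0.30, and in Mock 21 with a median of 0.03.

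RRN3, the initiation factor of RNA polymerase I, had signals of 9.81, 9.16, 10.08, 9.48 and 9.63 in BLT2 and 9.85, 9.73, 10.09, 9.63 and 9.84 in Mock. The 18 h arrays were the highest of each line and above both 0 h arrays. WDR12, which forms the PeBoW complex of the large subunit with PES1 and BOP1, had 10.56, 9.83, 10.73, 9.98 and 9.98 in BLT2 and 10.53, 10.33, 10.78, 10.58 and 10.62 in Mock. It too was highest at 18 h in both lines. Its partners PES1 and BOP1 did not pass the test in any comparison. PES1 had 9.67, 9.51, 9.74, 9.25 and 9.12 in BLT2 and 9.67, 9.77, 9.80, 9.62 and 9.71 in Mock, so its return arrays in BLT2 were the lowest of the 10. BOP1 had 8.83, 8.43, 8.25, 8.32 and 8.33 in BLT2 and 8.66, 8.61, 8.41, 8.68 and 8.66 in Mock, with the 18 h array the lowest of each line.

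BYSL, or bystin, a factor of the small subunit, had signals of 10.25, 9.60, 10.30, 9.88 and 9.92 in BLT2 and 10.15, 9.85, 10.29, 10.24 and 10.17 in Mock. DDX21, an RNA helicase of the nucleolus, had 9.54, 8.78, 9.56, 9.29 and 9.45 in BLT2 and 9.60, 9.48, 9.78, 9.67 and 9.69 in Mock. In both genes the 2 h array was the lowest of each line. Fitted changes close to 0 were seen for RRP1B (0.00 ± 0.14) and NPM1 (0.02 ± 0.11).

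**Figure D4:**
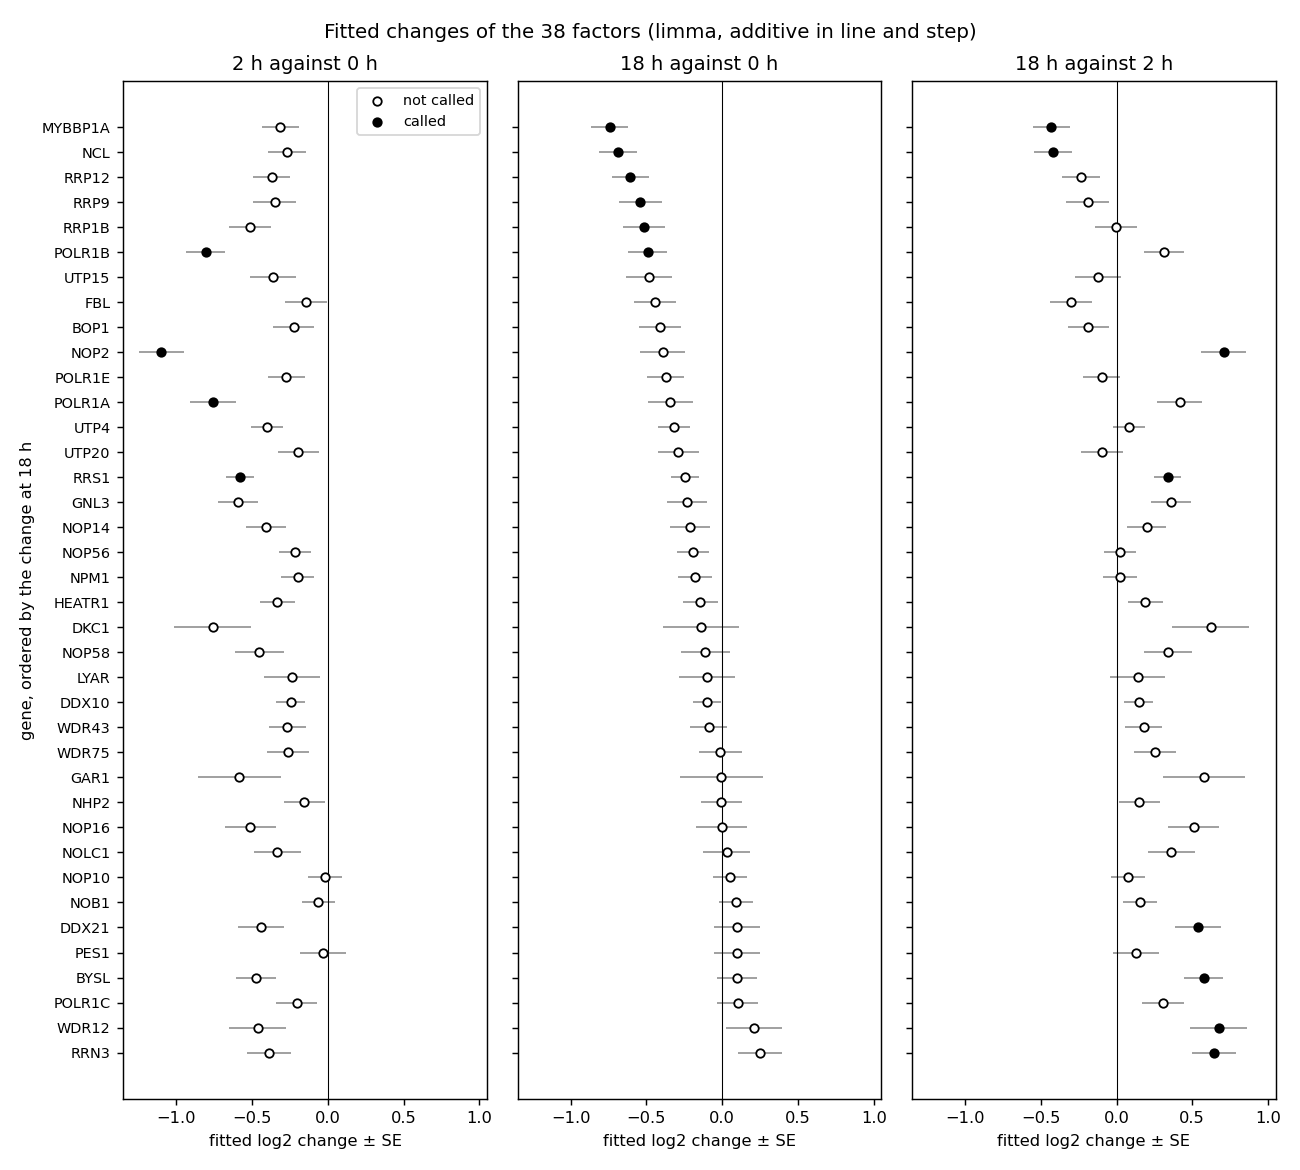
Fitted log2 change with its SE for the 38 members in 3 comparisons (2 h against 0 h, 18 h against 0 h, 18 h against 2 h), with filled points for those called at an adjusted p under 0.05. The comparisons share arrays. The 4 filled points of the left panel and the 6 of the middle panel lie below 0, and in the right panel 6 lie above 0 and 2, MYBBP1A and NCL, below it.

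No member was called in this comparison without the BLT2 array at 2 h or 18 h or the Mock array at 18 h. There were 9 without the Mock array at 2 h, and 4 or 5 without any 1 of the other 6 arrays. Without the BLT2 array at 2 h the median was 0.06, against 0.03 over all genes, with 25 of 38 above 0. Without the BLT2 array at 18 h it was 0.11 with 25 above 0. Without the Mock array at 2 h it was 0.28 with 33 above 0, against 0.07 over all genes.

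On 2 h of calcium return, 0 of the 38 members passed the test against 18 h in limma, while 3.34% of all genes did in either direction. At an unadjusted p under 0.05 there were 4 members, RRN3 (-0.53 ± 0.14), WDR12 (-0.47 ± 0.19), NOP16 (-0.42 ± 0.17) and WDR75 (-0.37 ± 0.14), and 19.1% of all genes. Their limma adjusted p lay between 0.102 and 0.227. The median fitted change was -0.08 over the members, with 25 of 38 below 0, and 0.02 over all genes. In BLT2 30 members were lower than at 18 h with a median of -0.19, and in Mock 21 were lower with a median of -0.01. The smallest fitted changes were those of UTP20 and HEATR1, both factors of the small subunit, with 0.00 at 2 decimals and SEs of 0.14 and 0.12. The count was 1 without the BLT2 array at 2 h and 1 without the Mock array at 2 h. Without the BLT2 array at 18 h the median was -0.0023 with 19 of 38 below 0. It was -0.16 without the Mock array at 18 h and -0.15 without the Mock array on return without 12-HHT, with 30 and 27 below 0.

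Set against 0 h, 5 members were lower on calcium return and 0 were higher in limma. Among all genes tested, 7.29% were lower and 814 of the 10498 were higher. The 5 members were NCL (-0.65 ± 0.13, limma adjusted p 0.0168), POLR1A (-0.63 ± 0.15, adjusted p 0.0323), MYBBP1A (-0.60 ± 0.12, adjusted p 0.0202), RRP12 (-0.59 ± 0.12, adjusted p 0.0215) and POLR1B (-0.49 ± 0.13, adjusted p 0.0470). The signals printed above show both return arrays of each of these genes below the 0 h array of the same line, without and with 12-HHT. The fitted change was below 0 for all 38 members with a median of -0.30, and for 46.1% of all genes with a median of 0.03. POLR1C, a subunit that RNA polymerases I and III share, and NHP2 had the smallest fitted changes, -0.04 ± 0.14 and -0.06 ± 0.14.

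In BLT2 all 38 members were lower on return than at 0 h, with a median change of -0.42 and 8 past 1.5-fold, a size that 6.08% of all genes reached downward. In Mock 27 were lower, with a median of -0.21, and GAR1 alone was past 1.5-fold, against 9.13% of all genes. On the return arrays with 12-HHT the medians against 0 h were -0.40 in BLT2, with 38 members lower, and -0.16 in Mock, with 28 lower. No member was called in the fitted comparison without the BLT2 array at 0 h or either line's return array. Leaving out an 18 h array of either line gave 3 members, and leaving out a 2 h array gave 11. Of the 38 fitted changes, 33 were below 0 without the BLT2 array at 0 h and 36 without the BLT2 return array without 12-HHT.

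Adding 200 nM 12-HHT during the return changed 0 of the 38 members and 0% of all genes in limma. At an unadjusted p under 0.05 there were 0 members and 29 of the 10498 genes. The fitted change was below 0 for 51% of all genes, with a median of -0.0018. It was above 0 for 29 members, with a member median of 0.04, and lay between -0.06 for DKC1 and 0.28 for GAR1. Without the BLT2 return array without 12-HHT the median was -0.0067 and 18 were above 0. Over the 10 fits that left out an array the median reached 0.096, without the Mock return array, and 31 were then above 0. In BLT2 30 members were higher with 12-HHT, as 41.5% of all genes were, with a member median of 0.05 and a range of -0.14 for PES1 to 0.31 for LYAR. In Mock 25 members were higher, as 57.7% of all genes were, with a member median of 0.03 and a range of -0.09 for DKC1 to 0.48 for GAR1. Past 1.5-fold there were 0 members in either line, against 0.448% of all genes in BLT2 and 0.152% in Mock. GNL3 and NOP14 had fitted changes of 0.00 ± 0.13 and 0.01 ± 0.13. With 1 array per line and condition, a change under the spread of the arrays could not be seen.

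Over all 5 steps, 5 members were lower in BLT2 than in Mock and 0 were higher in limma. Among all genes tested, 8.13% were lower and 821 of the 10498 were higher. The 5 members were DKC1, NOLC1, NOP58, NHP2 and NOP10. Of the 4 box H/ACA proteins 3 were among them, NOP58 is a core protein of the box C/D particle, and NOLC1 is a chaperone that binds both kinds of particle. In the box C/D and methylation group NOP58 was the only 1 of 5 called, and the group's median was -0.03. NOP2 and NOP56 of that group lay above 0, both at 0.11, and the other 3 lay below 0. The fitted difference was below 0 for 34 of 38 members, with a median of -0.20 against 0.00 over all genes. Without either 2 h array the median was -0.13 and 32 were below 0.

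For DKC1 the difference of BLT2 minus Mock was -0.34 at 0 h, -1.40 at 2 h, -0.32 at 18 h, -0.48 on return and -0.41 on return with 12-HHT. All 5 BLT2 signals of DKC1 lay below the Mock signal of the same step, though the BLT2 signal at 0 h was above the lowest Mock signals. The fitted difference was -0.59 ± 0.16 (limma adjusted p 0.0462), and -0.39 without either 2 h array, the smallest of the fits that left out an array.

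NOLC1 had signals of 10.80, 10.23, 10.78, 10.29 and 10.31 in BLT2 and 10.87, 10.78, 10.96, 10.88 and 10.92 in Mock. The BLT2 arrays at 2 h and on both returns were well below all Mock arrays, and those at 0 h and 18 h were close to them. The fitted difference was -0.40 ± 0.10 (limma adjusted p 0.0359). NOP58 had 11.16, 10.42, 11.02, 10.48 and 10.45 in BLT2 and 11.25, 11.08, 11.16, 11.04 and 10.96 in Mock, a fitted difference of -0.39 ± 0.10 (limma adjusted p 0.0412). It shared with NOLC1 the 3 low BLT2 arrays.

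NHP2 had signals of 10.14, 9.78, 10.06, 9.86 and 9.90 in BLT2 and 10.18, 10.23, 10.25, 10.33 and 10.41 in Mock, with no overlap between the lines. Its fitted difference was -0.33 ± 0.09 (limma adjusted p 0.0415). NOP10 had 9.80, 9.71, 9.86, 9.53 and 9.54 in BLT2 and 9.93, 9.97, 9.97, 9.96 and 9.91 in Mock, again with no overlap, and a fitted difference of -0.26 ± 0.07 (limma adjusted p 0.0457). GAR1, the other box H/ACA protein, had -0.40 ± 0.17 and did not pass the test (limma adjusted p 0.147). RRS1 and POLR1E, a subunit of polymerase I, differed least, by 0.01 ± 0.06 and -0.02 ± 0.08.

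The difference was not the same size at each step. The median of BLT2 minus Mock over the 38 members was -0.01 at 0 h with 21 below 0, -0.33 at 2 h with 37, -0.05 at 18 h with 26, -0.31 on return with 34, and -0.23 on return with 12-HHT with 32. The all-gene medians were 0.00, -0.07, 0.00, 0.01 and -0.01. NOP2 had 0.45 at 0 h, the highest difference of any member at that step, and WDR12 had -0.61 on return and -0.65 on return with 12-HHT, the lowest of any member at those steps.

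**Figure D5:**
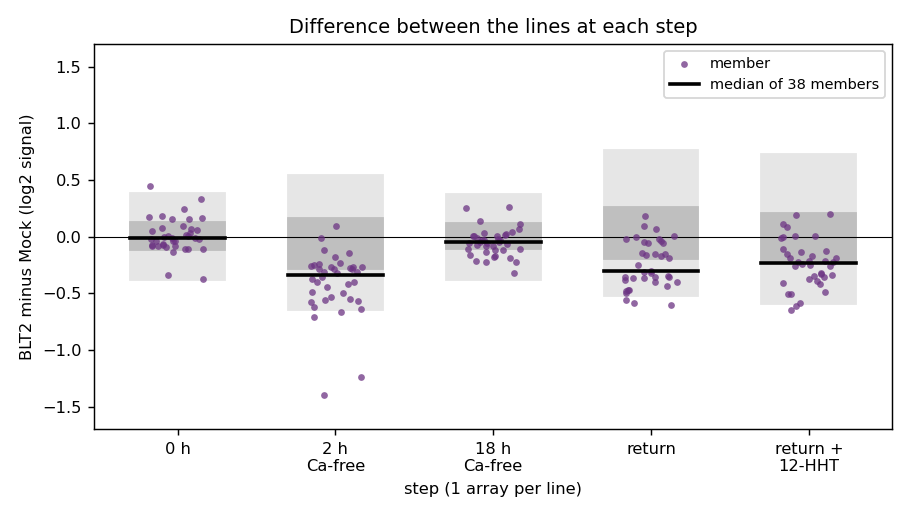
BLT2 minus Mock log2 signal of each of the 38 members at the 5 steps (points, black line the median), over boxes that hold the 25th to 75th (dark grey) and 5th to 95th (light grey) percentiles of all 10498 genes. The member medians are -0.01 at 0 h and -0.05 at 18 h, and -0.33 at 2 h, -0.31 on return and -0.23 on return with 12-HHT.

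Whether the difference between the lines changed on calcium return was tested as an interaction, both return steps against the 3 earlier ones. It called 0 members in limma and 11.3% of all genes in either direction. At an unadjusted p under 0.05 there were 4 members, FBL (-0.37 ± 0.11), PES1 (-0.37 ± 0.13), WDR12 (-0.45 ± 0.17) and POLR1C (-0.30 ± 0.13), and 31.6% of all genes. Their limma adjusted p lay between 0.0702 and 0.151, and the median over the members was -0.12, against 0.03 over all genes. Without either 2 h array 5 members were called and the median was -0.22, and without either 0 h array the median was -0.059, the nearest to 0 of the fits that left out an array. Members lower in BLT2 over all steps numbered 3 when a 0 h array was left out, 1 when a 2 h array was, and 0 when any 1 of the other 6 arrays or both 12-HHT arrays were. In every one of these fits the 5 differences stayed below 0.

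Other factors of the pathway, taken from lists of genes outside the 38, gave these counts. Of 51 other large subunit factors tested, out of 53 listed, 6 fell at 2 h and 0 rose, with a median of -0.38. The largest falls were those of RBM28 (-0.80), RSL1D1 (-0.73) and GRWD1 (-0.61). At 18 h 18 of the 51 were lower than at 0 h, among them RBM28 (-1.03) and EBNA1BP2 (-0.87), and 2 were higher, ZNF622 (0.84) and NOL12 (0.52). On return 12 were lower than at 0 h, led by DDX18 (-0.77). Of 30 other small subunit factors, out of 34 listed, 1 fell at 2 h and 1 rose, NOC4L (-0.69) and UTP3 (0.48), with a median of -0.38. At 18 h 5 of the 30 were lower and 3 higher, with NOC4L at -1.31, FCF1 at 0.69 and WDR36 at -0.62. All values here are fitted changes from limma, beside 1.98% of all genes lower and 2.64% higher at 2 h, 12.2% lower and 15% higher at 18 h, and 7.29% lower on return.

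Of 13 other subunits and cofactors of RNA polymerase I, out of 16 listed, 2 fell at 2 h, POLR2H (-0.50), which the other polymerases share, and POLR1G (-0.48). Among all genes tested, 1.98% fell at 2 h. Between 2 h and 18 h POLR1D (0.77), POLR1F (0.69) and POLR2H (0.39) rose, 3 of the 13 where 14.3% of all genes rose. POLR1F was lower in BLT2 than in Mock over the steps (-0.74), as 8.13% of all genes were. Of 19 genes of RNA polymerase III, out of 20 listed, 0 passed the test at 2 h, while at 18 h 4 were lower, led by POLR3G (-1.0), and 1 was higher, GTF3C6 (0.60), beside 12.2% of all genes lower and 15% higher. Of 13 exosome genes, out of 14 listed, EXOSC4 alone fell at 2 h (-0.74). Over the steps, BLT2 minus Mock was below 0 for 43 of the 51 other large subunit factors, with a median of -0.13. It was below 0 for 27 of 30 other small subunit factors (-0.19), 12 of 13 polymerase I genes (-0.17) and 11 of 13 exosome genes (-0.12). For polymerase III 10 of 19 genes were below 0 (-0.04). The members had 34 of 38 below 0 with a median of -0.20, and all genes had 50.6% below 0.

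Of 79 listed genes of the ribosomal proteins themselves, 59 had a probe set of their own and 53 passed the filter. At 2 h 0 of the 53 passed the test in limma and 3, or 5.66%, had an unadjusted p under 0.05, as 23.5% of all genes did. The fitted change at 2 h was below 0 for 42, or 79.2%, and for 53.6% of all genes, with a median of -0.05 over the 53. At 18 h RPS29 (-1.14) and RPL27 (-0.33) were lower than at 0 h, 2 of the 53 where 12.2% of all genes were lower, and the median was 0.00. In BLT2 against Mock 0 passed the test and 7, or 13.2%, had an unadjusted p under 0.05, as 33.9% of all genes did. The difference between the lines was below 0 for 44, or 83%, and for 50.6% of all genes, with a median of -0.05 over the 53.

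MYC, a transcription factor known to raise many of these genes, had signals of 9.65, 9.36, 9.61, 9.26 and 9.17 in BLT2 and 9.55, 9.80, 9.33, 8.40 and 8.61 in Mock. The Mock arrays on return were the lowest of the 10. At 2 h the difference from 0 h in MYC was -0.30 in BLT2 and 0.25 in Mock, with a fitted change of -0.02 ± 0.27 (limma adjusted p 0.967). On return against 0 h the fitted change was -0.77 ± 0.27 (adjusted p 0.0952). In the interaction of line with return MYC had 0.73 ± 0.22 (limma adjusted p 0.0738), where the median over the members was -0.12. MYC passed the test in no comparison. MXD1, a partner of MAX that opposes MYC, rose by 0.63 at 2 h (limma adjusted p 0.0284) and was 0.76 higher at 18 h and 0.78 higher on return than at 0 h. Of the 10 tested genes of the MYC network, MXD1 was the only gene called at 2 h, and MXD1, MGA and MXD4 were the 3 called at 18 h, all higher. Among all genes tested, 2.64% were higher at 2 h and 15% were higher at 18 h.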

How the data were processed

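The deposited table holds log2 signals per probe set, read as log2 from their range, which starts at 1.55. The authors used Affymetrix Expression Console and GCRMA, per the submitters' processing notes, with versions not given in the sources used here. GCRMA scales arrays to a shared distribution, so differences that act on a whole array cannot be seen. Of 32391 probe sets, 16545 had 1 symbol in the platform annotation, 370 had several and 15476 were not listed with one, which gave 15947 genes. A gene was tested where 2 or more arrays exceeded 7.21, the median over the whole table. All 38 members matched RefSeq by gene ID under the same symbol. The build behind the array is not given in the sources used here, so no coordinates are printed.

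limma 3.58.1 under R 4.3.3 fitted line and step as additive terms over the 10 arrays, with 4 residual degrees of freedom and 3 for the interaction. The lines stand in for replicates, so the error holds array noise and differences in response between the lines together. P-values were adjusted by Benjamini-Hochberg over all genes within each of the 8 comparisons, with a threshold of 0.05. The number of arrays limits the precision. Single arrays were compared by size at 1.5-fold. Full values were given for NCL, NPM1, FBL, POLR1A and POLR1B, for up to 8 called members per comparison with the same direction in both lines (for BLT2 against Mock at all 5 steps), for the 2 smallest changes, for up to 3 called genes of each other list, and for MYC. DKC1, GAR1, GNL3, the genes at an unadjusted p, the extremes of a range and a few further genes of the other lists were named after their values were seen. The members and lists were chosen with earlier results of these data known. Alternatives covered the filter, scaling, probe sets, an intensity trend, the 12-HHT arrays and each array in turn.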

Additional observations from a re-analysis of the deposited data

Results flagged for a closer look

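Between 18 h and the calcium return, 10 members moved one way on both BLT2 return arrays and the other way on both Mock return arrays, without and with 12-HHT. In 8 of them, or 21.1% of the 38, BLT2 was lower and Mock higher than at 18 h, as 11.2% of all genes were. The mean change in BLT2 minus that in Mock was -0.43 for POLR1C, -0.31 for HEATR1, -0.30 for NHP2, -0.28 for RRP1B, -0.27 for FBL, -0.23 for RRP12, -0.21 for NOP56 and -0.17 for UTP4. In the other 2, or 5.26%, BLT2 was higher and Mock lower, as 10.5% of all genes were, with 0.071 for POLR1E and 0.052 for POLR1B. Both arrays of a line are set against the same 18 h array of that line. For this choice of arrays the difference between the lines was not tested, and the limma interaction over all 5 steps called none of the 38 members.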

How the results depend on the processing

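No paired analysis was possible because each line and step had 1 array and the labels give no replicate numbers to pair. Where an array was left out, the other line's array of that step was assumed to vary like the rest. All 28 calls of members kept their sign in the 10 fits that left out 1 array, but keeping the sign did not mean keeping the call. The calls of NCL and RRS1 for 18 h against 2 h and of NOP10 for BLT2 against Mock were lost in each of these fits. The call of DDX21 for 18 h against 2 h was kept in 1 of them. The counts of members called then lay between 0 and 14 for 2 h against 0 h, 0 and 8 for 18 h against 0 h, 0 and 9 for 18 h against 2 h, 0 and 1 for return against 18 h, 0 and 11 for return against 0 h, 0 and 3 for BLT2 against Mock and 0 and 5 for the interaction. Over all genes, in that order, they lay between 34 and 1024, 591 and 3148, 37 and 2279, 2 and 375, 40 and 1848, 575 and 1116, and 51 and 1756, and stayed at 0 for 12-HHT. Without the signal filter the counts were 309 genes at 2 h, 230 genes for return against 18 h, 607 genes for the interaction, 3 members for 18 h against 2 h and 0 members for BLT2 against Mock, against 485, 351, 1190, 8 and 5. With the stricter filter there were 10 members at 18 h and 1 in the interaction, against 6 and 0. Median centring gave 312 genes at 2 h, 211 higher and 101 lower against 277 and 208, with 3 members at 18 h and 4 for 18 h against 2 h. Quantile normalization gave 3 members for BLT2 against Mock and 2 in the interaction, where all genes split into 824 higher and 575 lower, against 892 and 298, and the eBayes trend gave 1 member there. Without the 12-HHT arrays there were 298 genes at 2 h, 228 for return against 18 h and 575 for BLT2 against Mock (1674 with them), with 4 members for 18 h against 2 h and 0 for BLT2 against Mock. Some values that passed no test changed sign. With the mean of its probe sets NPM1 had -0.11 for 18 h against 2 h, 0.12 for return against 18 h and -0.13 in the interaction. Under median centring NCL had -0.0083 and POLR1B -0.037 for return against 18 h. In the fits that left out 1 array, FBL lay between -0.30 and 0.018 at 2 h, and NPM1 between -0.10 and 0.14 for 18 h against 2 h. For return against 18 h the ranges were -0.20 to 0.017 for NPM1, -0.16 to 0.12 for FBL, -0.043 to 0.056 for POLR1B and -0.053 to 0.12 for NCL. For 12-HHT they were -0.090 to 0.19 for FBL, -0.070 to 0.040 for POLR1B and -0.00056 to 0.078 for NPM1. In the interaction they were -0.030 to 0.15 for NPM1 and -0.00033 to 0.24 for POLR1B. The cause of these changes was not tested, beyond the fewer arrays or other genes that each alternative uses.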
